A study of Mus musculus with 4 samples.

Results

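Immunoglobulin heavy chains built with a V gene of family 2 (V2, gene names beginning IGHV2-) were taken from the deposited tables of assembled receptor contigs of 2 libraries, an Mll3/4 deleted Kit+ library and a control B220lo library. A contig is an assembled receptor transcript of 1 cell barcode, and it was a member when its chain was IGH and its V gene was of family 2. Of 12496 cells with a heavy chain in both libraries together, 1350 carried a V2 heavy chain. The deleted library gave 777 of them and the B220lo library 573.

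All cells were CD45.2+ mouse bone marrow cells sorted 10 weeks after transplantation, and their libraries came from the 10x Genomics Chromium 5′ v2 chemistry. Kit is a receptor of stem and progenitor cells, and B220 is a surface antigen of the B lineage. The series holds 4 libraries, 1 per group: control Kit+, Mll3/4 deleted Kit+, Mll3/4SI Kit+ and control B220lo. The labels do not expand SI, do not say how Mll3 and Mll4 were deleted, and do not give the number of mice per library. With 1 library per group no difference has a replicate check, so no test between groups was made. Intervals in brackets are exact Clopper-Pearson 95% intervals, or exact conditional 95% intervals for ratios, and they cover counting error only. The main libraries differed in genotype and in sort. They also differed in sex-linked transcripts, because in V2 cells Xist stood at 0 UMIs in the deleted and 1389 UMIs in the B220lo library, while Ddx3y stood at 240 and 0 UMIs. These differences cannot be told apart in any comparison of the libraries below.

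A heavy chain is assembled from V, D and J segments by the RAG recombinase, and in B-cell precursors a D segment is joined to a J segment before a V segment is joined to that DJ unit. The V2 family of the mouse, also called Q52, lies among genes of family 5 at the end of the V region nearest the D and J segments, while the large family 1 lies farther out. A rearranged heavy chain first pairs with the surrogate light chain encoded by Vpreb1 and Igll1, and light-chain genes are rearranged later. The CDR3, the stretch that spans the V-D-J joints, differs between independent rearrangements, so cells with the same V gene, J gene and CDR3 nucleotide sequence are counted here as 1 rearrangement.

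Many V2 cells of the deleted library carried rearrangements on 4 D-J ends shared between different V2 genes, and these sequences are shown to let the shared letters be seen. The CDR3 sequences below run 5′ to 3′ from the conserved cysteine codon of the V segment. Capitals mark the end of the CDR3 shared by every V2 rearrangement on the same D-J end, and the lower-case start holds the bases before it, which are V bases, joint bases and, in some, further D bases. Each name gives the D-J end, the V2 gene and the number of cells, for 3 V2 genes whose largest rearrangement on that end held the most cells. The last place was tied on ends B (IGHV2-2 and IGHV2-6), C (IGHV2-6-8 and IGHV2-9) and D (IGHV2-5 and IGHV2-6-8), and 1 of each pair is shown.
End A, IGHV2-6-8, 106 cells: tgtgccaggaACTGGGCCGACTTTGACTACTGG
End A, IGHV2-3, 39 cells: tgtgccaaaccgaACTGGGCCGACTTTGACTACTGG
End A, IGHV2-6, 31 cells: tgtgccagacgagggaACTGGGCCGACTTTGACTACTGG
End B, IGHV2-5, 10 cells: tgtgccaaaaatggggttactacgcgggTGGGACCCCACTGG
End B, IGHV2-4, 3 cells: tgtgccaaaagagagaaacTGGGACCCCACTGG
End B, IGHV2-2, 2 cells: tgtgccaaacTGGGACCCCACTGG
End C, IGHV2-2, 74 cells: tgtgccggAACTGCCCCCTTTGACTACTGG
End C, IGHV2-3, 11 cells: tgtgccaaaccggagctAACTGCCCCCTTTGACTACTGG
End C, IGHV2-6-8, 5 cells: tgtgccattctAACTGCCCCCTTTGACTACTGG
End D, IGHV2-6, 52 cells: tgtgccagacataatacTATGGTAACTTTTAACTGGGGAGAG
End D, IGHV2-3, 21 cells: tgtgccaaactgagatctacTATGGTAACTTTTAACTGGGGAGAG
End D, IGHV2-5, 1 cell: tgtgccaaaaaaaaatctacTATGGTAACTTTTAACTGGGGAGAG

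The segments behind these ends are shown to let the shared letters be read against the germline, in the GENCODE M21 annotation of GRCm38 (minus strand of chromosome 12).
Ighj2: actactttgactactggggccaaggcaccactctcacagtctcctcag
Ighd4-1, chr12:113430528-113430538: ctaactgggac
Ighd2-8, chr12:113450851-113450867: tctactatggtaactac
All 4 ends used IGHJ2. The shared part of ends A, B and C held 5 or 6 bases of Ighd4-1, and that of end D held 10 bases of Ighd2-8. Between the D and the J bases, end A carried ccg, end B ccc and end C cccc. Taken as a whole, none of these runs of letters matches either germline segment at that place, though single letters do. End D carried 14 bases between its D and J matches, of which 8 in a row (taactggg) also occur in Ighd4-1, and kept 1 base of IGHJ2 within the CDR3, so its CDR3 lacks the final TGG codon of the other ends.

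V2 chains made up a larger share of heavy chains in the deleted library than in the B220lo library. They were in 777 of 3392 heavy-chain cells of the deleted library, or 22.9% (21.5 to 24.4), and in 573 of 9104 cells of the B220lo library, or 6.29% (5.80 to 6.81). Counted once per rearrangement, the V2 share was 33.2% (29.5 to 37.0) of 633 rearrangements in the deleted library and 5.90% (5.43 to 6.39) of 9410 in the B220lo library. The ratio of the V2 shares between the libraries was 3.64 by cells and 5.62 by rearrangements. The neighbouring family 5 made up 46.0% of the rearrangements in the deleted and 9.14% in the B220lo library, and family 1 made up 4.42% and 55.6%. By cells family 5 stood at 58.4% and 9.74%. Its ratio between the libraries was 5.03 by rearrangements and 5.997 by cells, so the ratio of V2 was the higher of the pair by rearrangements and the lower by cells. The control Kit+ library held 3 V2 cells of 34 heavy-chain cells and the SI library 7 of 24, which gives intervals of 1.86 to 23.7% and 12.6 to 51.1%.

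The deposited matrices gave 130424242 UMIs in 15091 barcodes of the deleted library and 85445426 UMIs in 16861 barcodes of the B220lo library. The median V2 contig rested on 23 UMIs in the deleted and 17 UMIs in the B220lo library. Of all contig barcodes, 37 occurred in both libraries, and none of them was a V2 cell in both. No V2 CDR3 nucleotide sequence was found in both libraries. In V2 cells 5 B-lineage markers (Cd79a, Cd79b, Ebf1, Pax5 and Blnk) were all detected in both libraries, with summed levels of 7226 and 8034 CPM (UMIs of a gene relative to all UMIs of the cells, scaled to a common total) in the deleted and B220lo libraries. In the same cells 5 plasma cell markers summed to 121 and 1954 CPM, and 6 granulocyte markers to 1847 and 1379 CPM.

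Within the family, the gene nearest the D and J segments led in the B220lo library, and IGHV2-6, IGHV2-6-8, IGHV2-7 and IGHV2-9 took larger shares in the deleted library. The V2 genes found in the contigs lie between IGHV2-2, 158 kb from the first J segment, and IGHV2-9 at 449 kb, and all 9 V2 genes in the contig tables were matched to the annotation. IGHV2-2 (chr12:113588267-113588702) gave 25 of the 210 V2 rearrangements of the deleted library, 11.9% (7.85 to 17.1), and 199 of the 555 of the B220lo library, 35.9% (31.9 to 40.0). IGHV2-6-8 (chr12:113796138-113796567) gave 33 rearrangements in the deleted library, 15.7% (11.1 to 21.4), and 17 in the B220lo library, 3.06% (1.79 to 4.86). The 2 intervals of each of these genes lie apart, as do those of IGHV2-6, IGHV2-7, IGHV2-9 and IGHV2-9-1. No such count was made over V genes of other families, so how often intervals lie apart over all V genes is not known here. Shares within V2 are parts of the same whole, so the lower share of IGHV2-2 in the deleted library goes with higher shares of other V2 genes.

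IGHV2-6 (chr12:113716670-113717103) gave 35 rearrangements (16.7%) in the deleted and 40 (7.21%) in the B220lo library. IGHV2-9 (chr12:113879096-113879541), the V2 gene farthest from the J segments, gave 38 (18.1%) and 47 (8.47%). IGHV2-9-1 (chr12:113769850-113770302) went the other way, with 21 (10.0%) in the deleted and 101 (18.2%) in the B220lo library. Its intervals, 6.30 to 14.9% and 15.1 to 21.7%, do not overlap but lie close together. IGHV2-3, IGHV2-4 and IGHV2-5 had overlapping intervals in the 2 libraries, at 25, 5 and 21 rearrangements in the deleted and 69, 14 and 67 in the B220lo library. The remaining V2 gene, IGHV2-7, gave 7 and 1. IGHV2-6 and the 4 V2 genes beyond it together held 63.8% (56.9 to 70.3) of the V2 rearrangements of the deleted library and 37.1% (33.1 to 41.3) of those of the B220lo library. This grouping was not planned and restates the shares of single genes, among them IGHV2-9-1, which went the other way.

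**Figure D1:**
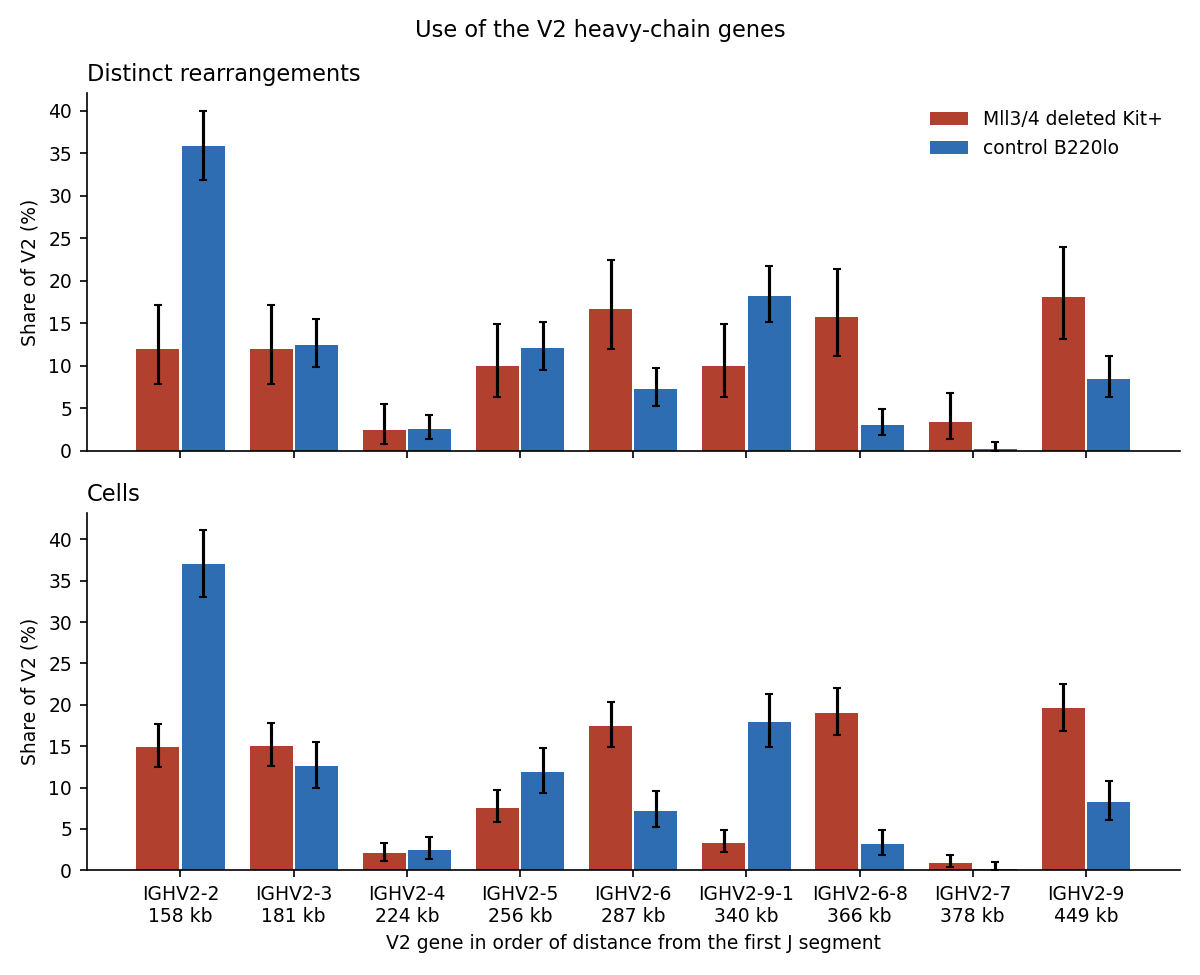
Share of each V2 gene among distinct V2 rearrangements (top) and V2 cells (bottom) in the deleted (red) and B220lo (blue) libraries, with exact 95% intervals as bars; the x axis gives the genes in order of distance (kb) from the first J segment. IGHV2-2 takes 35.9% of the rearrangements in the B220lo library and 11.9% in the deleted library, and IGHV2-6-8 takes 3.06% and 15.7%.

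The V2 genes are alike in sequence, which limits the assignment of single genes. From framework 1 to framework 3, IGHV2-2 and IGHV2-4 differed at 5 of 282 bases and IGHV2-6-8 and IGHV2-9 at 7. The contigs nevertheless matched the annotated genes closely: 777 of 777 V2 contigs of the deleted library and 571 of 576 of the B220lo library equalled the annotated gene over that stretch. Among heavy chains of other families 8399 of 9234 contigs of the B220lo library did so, or 91.0% (90.4 to 91.5). In the deleted library 2608 of 2616 did, or 99.7%.

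Set against all heavy-chain rearrangements, 7 of the 8 V2 genes with at least 10 rearrangements over both libraries had a share at least 2-fold higher in the deleted library, and none was 2-fold lower. Of all 85 V genes compared, 20.0% were higher and 44.7% lower at that fold. The ratio was 28.9 (15.6 to 55.2) for IGHV2-6-8, 13.0 (8.02 to 21.0) for IGHV2-6 and 12 (7.63 to 18.8) for IGHV2-9. It was 5.39 for IGHV2-3, 5.31 for IGHV2-4, 4.66 for IGHV2-5 and 3.09 for IGHV2-9-1. IGHV2-2 had the lowest ratio of the family, 1.87 (1.18 to 2.84), and did not pass 2-fold. The median ratio was 5.35 over the V2 genes and 0.697 over all V genes compared. The latter counts a V gene found in 1 library only at the limit set by 3 rearrangements.

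Genes of other families in the same stretch of the locus were also higher in the deleted library. Between the first J segment and IGHV2-9, 6 of 9 genes of other families were at least 2-fold higher, with a median ratio of 3.57. Beyond IGHV2-9, 4 of 68 genes were higher and 38 lower. The stretch from the J segments to IGHV2-9 held 79.1% (75.8 to 82.2) of all rearrangements in the deleted and 15.0% (14.3 to 15.8) in the B220lo library. Within that stretch the V2 share of rearrangements was 41.9% (37.6 to 46.4) and 39.2% (36.7 to 41.8), a difference within the counting error. By cells, V2 and family 5 stood at 22.9% and 58.4% of heavy-chain cells in the deleted library. They stood at 6.29% and 9.74% in the B220lo library, so of the cells of these 2 families V2 held a smaller part in the deleted library.

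V2 chains of the deleted library were joined most often to IGHJ2, while those of the B220lo library used the 4 J segments almost evenly. IGHJ2 was in 119 of 210 V2 rearrangements of the deleted library, 56.7% (49.7 to 63.5), and in 133 of 555 of the B220lo library, 24.0% (20.5 to 27.7). Weighted by cells, IGHJ2 was in 641 of 777 V2 cells of the deleted library (82.5%) and in 140 of 573 of the B220lo library (24.4%). Other families of the deleted library had it in 2089 of 2615 cells (79.9%), and those of the B220lo library in 41.3%. IGHJ1 was in 7.62% (4.42 to 12.1) of the V2 rearrangements of the deleted and 23.4% (20.0 to 27.2) of those of the B220lo library. IGHJ3 stood at 19.5% and 27.7%, and IGHJ4 at 16.2% and 24.9%. Without the 4 shared D-J ends, an alternative chosen after the data were seen, IGHJ2 in the deleted library stood at 42.4% (34.6 to 50.5).

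The V2 chains also differed from the other families within the B220lo library. There IGHJ2 was in 39.5% (38.5 to 40.6) of the rearrangements of other families, above the 24.0% of V2, and IGHJ4 was in 15.2% (14.4 to 15.9), below the 24.9% of V2. In the deleted library IGHJ2 was in 44.9% (40.1 to 49.8) of the rearrangements of other families and 56.7% of V2. Among V2 genes with at least 10 rearrangements in the B220lo library, IGHJ2 use ranged from 3 of 47 IGHV2-9 rearrangements, 6.38% (1.34 to 17.5), to 66 of 199 for IGHV2-2, 33.2% (26.7 to 40.2). In the deleted library IGHV2-9 joined IGHJ2 in 21 of 38 rearrangements, 55.3% (38.3 to 71.4), and IGHV2-2 in 16 of 25.

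**Figure D2:**
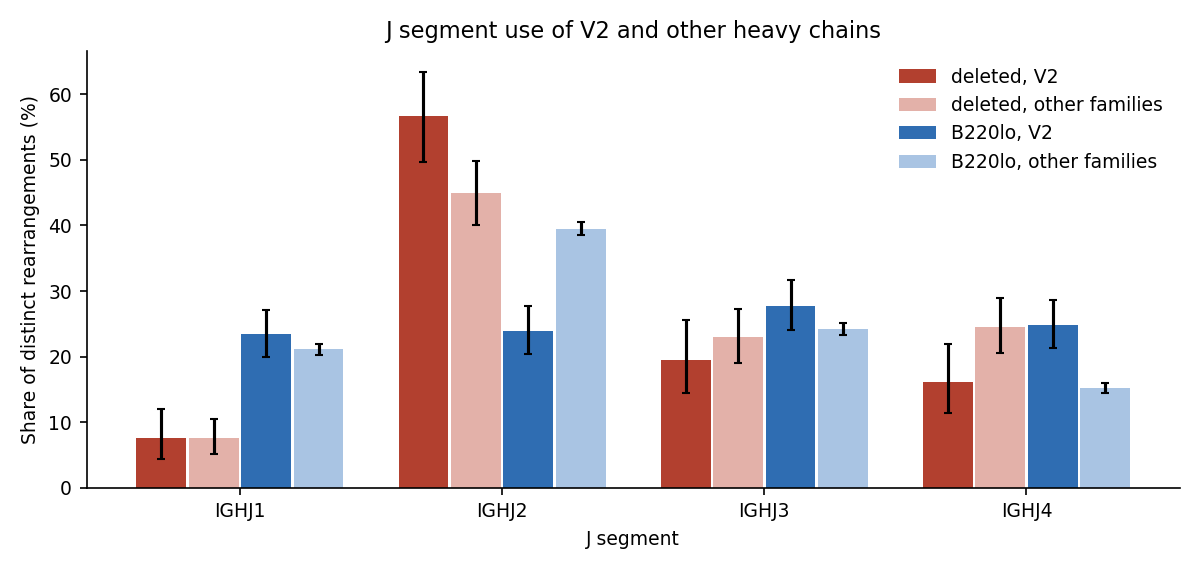
Share of distinct rearrangements (y axis, %) with each of the 4 J segments (x axis) for V2 and for all other families in the deleted and B220lo libraries, with exact 95% intervals as bars. IGHJ2 stands at 56.7% in V2 of the deleted library and at 24.0% in V2 of the B220lo library.

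The CDR3 of V2 chains differed little in length. Its median was 39 bases (quartiles 36 and 45, range 21 to 69) over the 210 V2 rearrangements of the deleted library and 42 bases (36 and 48, range 21 to 66) over the 555 of the B220lo library. Other families had a median of 42 bases in both libraries. Split by J segment, V2 rearrangements with IGHJ2 had a median of 39 bases in both libraries. In the deleted and B220lo libraries it was 42 and 45 bases with IGHJ1, 42 and 39 with IGHJ3, and 48 and 45 with IGHJ4. Between the end of the match to the annotated V segment and the start of the match to the J segment, the median stretch was 18 bases in the deleted and 17 in the B220lo library. Of these, a median of 8 and 7 bases matched no D segment. In 417 and 8252 rearrangements of other families the median stretch was 17 bases, of which a median of 7 matched no D segment, in both libraries. The annotated V segments end at slightly different places and the libraries differ in V2 gene use, so single genes were also compared. For IGHV2-9 the stretch had a median of 18 bases (17 to 21, 95% interval of the median) in the deleted and 15 bases (13 to 16) in the B220lo library. For IGHV2-2 it was 17 bases in both. The CDR3 lacked the final TGG codon in 16 of 210 V2 rearrangements of the deleted library, which held 114 cells, and in 2 of 555 of the B220lo library. The shares were 7.62% (4.42 to 12.1) and 0.360% (0.0437 to 1.30), and the 8 rearrangements on end D are among the 16. Other families differed between the libraries in the same way. The codon was lacking in 21 of their 423 rearrangements in the deleted library, 4.96% (3.10 to 7.49), and in 30 of 8855 in the B220lo library, 0.339% (0.229 to 0.483).

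Many V2 cells of the deleted library shared a rearrangement, and few of the B220lo library did. The largest V2 rearrangement of the deleted library, IGHV2-6-8 with IGHJ2 on end A, held 106 cells, or 13.6% of the V2 cells. The next held 90 cells (IGHV2-9 with IGHJ2) and 74 cells (IGHV2-2 with IGHJ2 on end C). The 12 V2 rearrangements with at least 10 cells held 482 of 777 V2 cells, 62.0% (58.5 to 65.5), and 166 of the 210 rearrangements were seen in 1 cell. The other families of the deleted library were still more concentrated, with a largest rearrangement of 448 cells and 77.1% (75.4 to 78.7) of cells in rearrangements of at least 10. In the B220lo library the largest V2 rearrangement held 3 cells, 19 held 2 cells and 535 of 555 were seen in 1 cell. Only 1 V2 rearrangement of the deleted library lay 1 base from a larger one with the same V gene, J gene and length, and none of the B220lo library did. The second-largest of the deleted library is not on a shared end, and the B220lo sequences show the largest V2 rearrangement there and 2 of the 19 tied at 2 cells.
Deleted, IGHV2-9 with IGHJ2, 90 cells: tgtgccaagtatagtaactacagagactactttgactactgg
B220lo, IGHV2-2 with IGHJ2, 3 cells: tgtgccagggggggccttgactactgg
B220lo, IGHV2-2 with IGHJ1, 2 cells: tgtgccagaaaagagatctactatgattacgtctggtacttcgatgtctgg
B220lo, IGHV2-2 with IGHJ1, 2 cells: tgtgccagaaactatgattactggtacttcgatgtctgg

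**Figure D3:**
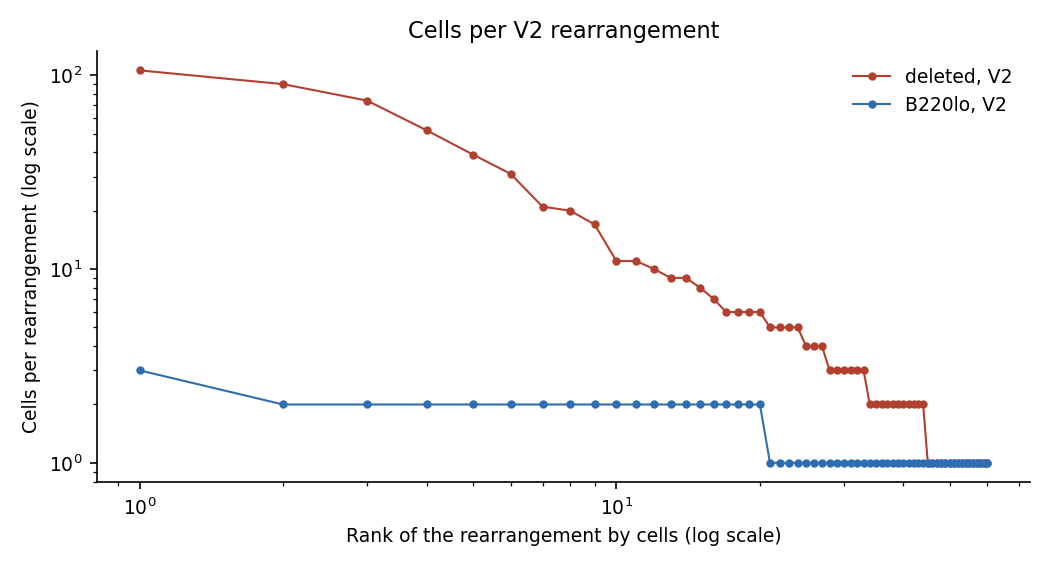
Cells per V2 rearrangement (y axis, log scale) by rank of the rearrangement (x axis, log scale, the first 60 ranks) in the deleted (red) and B220lo (blue) libraries. The deleted library runs from 106 cells down to 1, and the B220lo library from 3 to 1.

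The 4 shared D-J ends joined several V2 genes each. An end was counted as shared where the J segment, the length of its match and the 9 bases before it were the same in at least 8 V2 rearrangements, a definition made after the sequences were seen. End A was in 18 V2 rearrangements with 7 V2 genes and 223 cells. End B was in 15 with 6 V2 genes and 35 cells, end C in 11 with 6 V2 genes and 102 cells, and end D in 8 with 4 V2 genes and 95 cells. Together they held 52 of the 210 V2 rearrangements, 24.8% (19.1 to 31.2), and 455 of the 777 V2 cells, 58.6% (55.0 to 62.0).

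The same ends occurred in other families. End A was also in 29 rearrangements of other families with 1418 cells, end B in 15 with 330 cells, end C in 13 with 22 cells and end D in 11 with 57 cells. Over all other families of the deleted library the 4 ends held 68 of 423 rearrangements, 16.1% (12.7 to 19.9), and 69.8% of the contigs. They were in 0 of 555 V2 rearrangements and 1 of 8855 rearrangements of other families in the B220lo library. That library had shared ends of its own, in up to 53 rearrangements of other families and up to 5 of V2. The 4 ends were picked for their number of V2 rearrangements in the deleted library, so a higher share there is set by that choice and these counts are a description. Each of the 9 V2 genes had a rearrangement on at least 1 of the ends. IGHV2-6 had 5 rearrangements on end A, 5 on end B, 3 on end C and 4 on end D, which makes it the only V2 gene found on all 4. IGHV2-2 had 4, 1 and 2 on ends A, B and C.

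**Figure D4:**
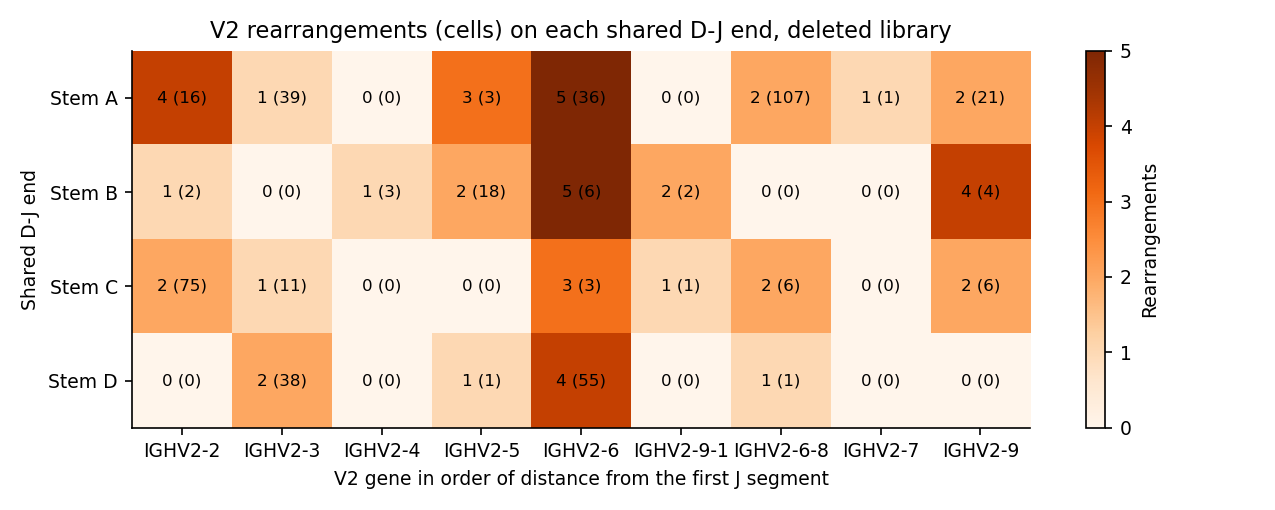
Number of V2 rearrangements, with cells in brackets, for each V2 gene (x axis, in order of distance from the first J segment) on each of the 4 shared D-J ends (y axis, labelled stems A to D) of the deleted library; darker colour means more rearrangements. End A joins 7 V2 genes, and IGHV2-6 appears on all 4 ends.

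Heavy chains of the deleted library were almost never seen with a light chain, V2 or not. A light-chain contig was in 2 of 777 V2 cells there, 0.257% (0.0312 to 0.927), 1 with a kappa chain (IGKV12-41) and 1 with a lambda chain (IGLV1). Among its cells without a V2 chain 19 of 2615 had one, 0.727% (0.438 to 1.13). In the B220lo library 436 of 573 V2 cells had one, 76.1% (72.4 to 79.5). Of these cells 356 had a kappa chain and 99 a lambda chain, with 19 counted under both. Of the 573 V2 cells, 78 held 2 or more heavy-chain contigs, and there a light chain cannot be assigned to 1 heavy chain. In barcodes with exactly 1 heavy-chain contig, 72.3% of V2 cells had a light chain. Among B220lo cells without a V2 chain, 80.4% (79.6 to 81.3) had a light chain. A lambda chain was in 22.7% (18.9 to 26.9) of the V2 cells with a light chain and in 1371 of the 6861 others with one, or 20.0%. The light-chain V genes most used by V2 cells of the B220lo library were IGLV1 with 69 cells, IGLV2 with 24 and IGKV1-135 with 21.

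Within the B220lo library V2 chains were in 5.98% (5.44 to 6.54) of the heavy-chain cells with a light chain and in 7.58% (6.40 to 8.90) of those without one. IGHV2-2 was the leading V2 gene in both classes, with 156 of 436 and 56 of 137 V2 cells. The constant region was IGHM in all 777 V2 contigs of the deleted library and in 563 of 576 of the B220lo library, where 5 were IGHA and 4 IGHD. All 7 V2 cells of the SI library had a light chain, 6 of them lambda, and used IGHV2-9 (5 cells) or IGHV2-9-1 (2 cells). Only 2 of these 7 V2 contigs equalled the annotated gene from framework 1 to framework 3, and 3 of 18 contigs of other families in the SI library did. All 3 V2 cells of the control Kit+ library had a kappa chain.

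The gene expression matrices of the same cells hold transcripts of the V genes, counted without regard to assembled contigs. In cells with 1 heavy-chain contig, the V2 gene named by the contig was detected in 775 of 777 V2 cells of the deleted library and in 490 of 495 of the B220lo library, with a median of 11 and 12 UMIs. It led the other V2 genes in 98.5% and 98.6% of these cells. It led all V genes in 94.1% (91.7 to 96.0) of the V2 cells of the B220lo library but in 148 of the 777 of the deleted library. V2 cells of the deleted library carried a median of 82 UMIs from family 1 genes (quartiles 50 and 123), and those of the B220lo library a median of 0. Family 1 transcripts stood at 10693 CPM in V2 cells of the deleted library, 10637 CPM in its other heavy-chain cells and 9600 CPM in its cells without a heavy-chain contig. In its 226 cells with neither a heavy-chain contig nor a UMI of these 5 B-lineage markers they stood at 105 CPM.

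Ighv2-7 stood apart within the family, a gene singled out after its values were seen. It was used by 7 V2 rearrangements of the deleted library and 1 of the B220lo library. In the expression matrix it had the most UMIs of the V2 genes in the deleted library, 9067, against 30 UMIs in the B220lo library. Of the 9067 UMIs, 6698 lay in the 11699 cells without a heavy-chain contig. Its level in the deleted library was 118 CPM in V2 cells, 68.8 CPM in other heavy-chain cells and 66.4 CPM in cells without a heavy-chain contig. The V2 cells include by definition the 7 cells whose own heavy chain uses IGHV2-7, with a median of 27 UMIs of the gene. The level without these cells was not computed. At least 1 Ighv2-7 UMI was in 33.7% (32.8 to 34.6) of the cells without a contig, at a median of 6739 UMIs per cell. It was in 0 of the 226 cells that also lacked B-lineage markers, at a median of 11079.5 UMIs per cell, which allows up to 1.62% of cells with an Ighv2-7 UMI and sets no limit on cells that express the gene. Ighv2-7 is also the V2 gene least like the others, with at most 82.6% identity to any of them. In cells without a contig the remaining V2 genes summed to 54.4 CPM (deleted) and 39.2 CPM (B220lo).

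**Figure D5:**
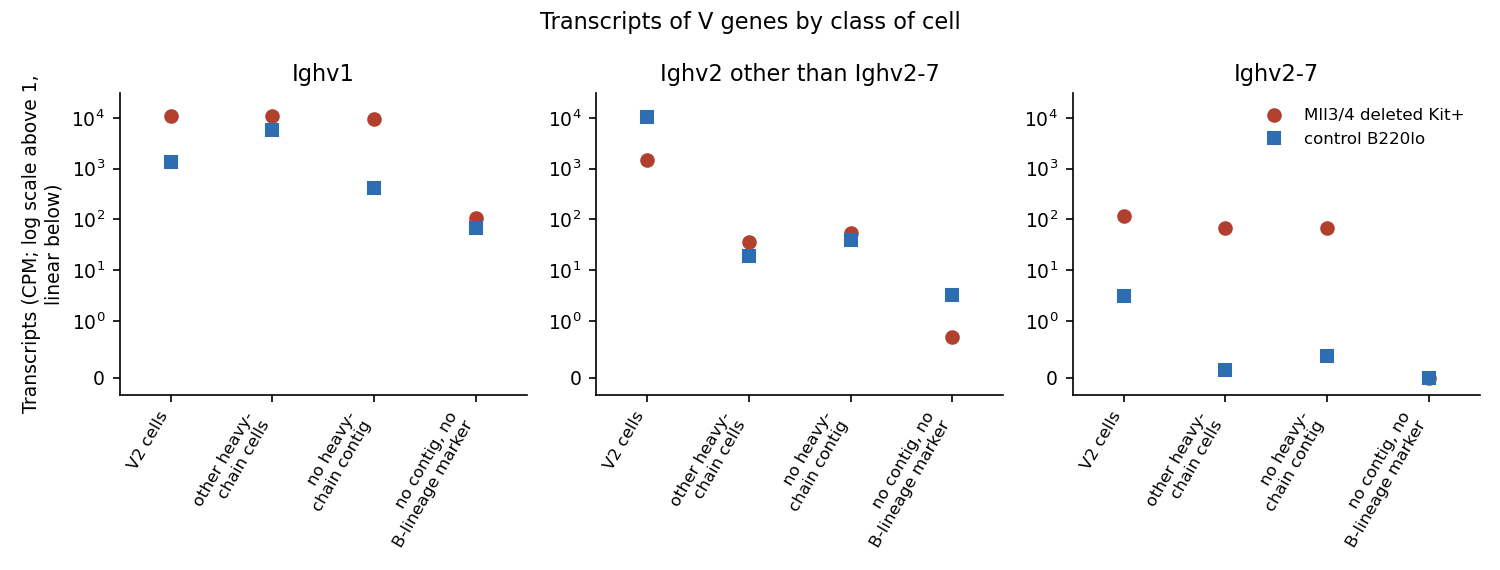
Transcripts in CPM (y axis, log scale above 1 and linear below) of family 1 genes, of V2 genes other than Ighv2-7 and of Ighv2-7 in 4 classes of cell (x axis) of the deleted (red circles) and B220lo (blue squares) libraries. Ighv2-7 stands between 66.4 and 118 CPM in the first 3 classes of the deleted library and at 0 in cells without a contig or a B-lineage marker.

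Outside the receptor genes, few genes stood apart between V2 cells and the other heavy-chain cells of the same library. Levels were compared as CPM of summed UMIs with 1 CPM added, and a gene was called at a 1.5-fold difference. In the deleted library 0.206% of 10705 genes were higher and 0.589% lower in V2 cells. The shares were 1.17% higher and 2.65% lower of 11192 genes in the B220lo library. Of 10 genes of early B-lineage stages, 9 could be compared in the deleted library and none passed 1.5-fold. Vpreb1 and Igll1, the surrogate light chain, stood at 2705 and 2602 CPM in V2 cells and 2643 and 2540 CPM in the other heavy-chain cells. Of the early genes 1 of 10 was higher in V2 cells of the B220lo library, Erg, a transcription factor, at 40.6 against 26.4 CPM. It did not pass with 10 CPM added. Vpreb3 there stood at 2062 and 2088 CPM and Igll1 at 369 and 366 CPM.

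Of 10 genes of later B-cell stages, 6 could be compared in the deleted library and 3 were lower in V2 cells. They were Cd74, the invariant chain of MHC class II, at 8.66 against 31.1 CPM, and the class II genes H2-Aa at 3.52 against 7.39 CPM and H2-Eb1 at 3.08 against 5.36 CPM. Their UMIs were 59, 24 and 21 in V2 cells and 707, 168 and 122 in the others. The number of cells behind these UMIs was not counted. With 10 CPM added only Cd74 of the 3 genes passed. H2-Ab1 stood at 211 and 217 CPM and Ltb at 32.1 and 32.3 CPM. The list's median log2 ratio was -0.34, against 0.00 over all genes compared. In the B220lo library none of the 10 later genes passed 1.5-fold, with Cd74 at 2916 and 2912 CPM and Ms4a1 at 412 and 449 CPM. None of 10 cell-cycle genes passed 1.5-fold in either library. For the deleted library Mki67 stood at 535 CPM in V2 and 536 CPM in other cells, and Top2a at 542 and 493 CPM. For the B220lo library the values were 495 and 570 CPM for Mki67 and 425 and 480 CPM for Top2a.

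Several of the largest differences rested on few cells. Genes were ranked with 1 CPM added, and the ratios printed here are of CPM with nothing added, which are larger for low genes (Retnlg had a log2 ratio of -3.12 with 1 CPM added). In the deleted library Gm29554, Nrgn and Pcdh11x had the largest ratios in favour of V2 cells, 6.49, 5.23 and 3.30. Gm29554 had 70 UMIs in 17 V2 cells, 23 of them in 1 cell. Nrgn had 105 UMIs in 12 V2 cells, and Pcdh11x had 201 UMIs in 83. Cdh8, whose 607 UMIs in the other cells came from 159 cells, was 5.35-fold lower. Car1, a carbonic anhydrase of erythroid cells, and Chil3 were 7.74-fold and 7.40-fold lower. The 395 Chil3 UMIs of the other cells came from 13 cells, 1 of which held 187. For Car1, 238 of the 568 UMIs of the other cells came from 1 cell. The 5 erythroid markers, Car1 among them, together stood at 5.43 CPM in V2 cells and 27.7 CPM in the others. Car1 alone stood at 3.23 and 24.97 CPM, so most of the level of this list in the other cells was Car1. The erythroid list without Car1 was not tested. The same erythroid list stood the other way round in the B220lo library, at 409 CPM in V2 cells and 181 CPM in the others. Among B220lo cells the basophil and mast cell genes Mcpt8, Cpa3 and Hdc were highest in V2 cells, with ratios of 9.71, 5.55 and 3.59. For Mcpt8, 98 of 101 UMIs came from 1 V2 cell, and for Cpa3 117 of 150 did. Retnlg was 19.7-fold lower in V2 cells, with 2 against 602 UMIs, a ratio of 0.0508 (0.00614 to 0.184). Its 602 UMIs came from 57 of the other cells, 145 of them from 1 cell. The interval takes no account of UMIs lying together in few cells. Stfa1 and Cd3d had 0 UMIs in V2 cells and were at least 5.87-fold and 5.84-fold lower, counting 3 UMIs for the V2 cells. For Stfa1, 257 of the 269 UMIs of the other cells came from 1 cell, while the 268 UMIs of Cd3d came from 101 cells. The 5 T and NK cell markers, Cd3d among them, together stood at 43.8 CPM in V2 cells and 86.8 CPM in the others. The part of these other cell types in the differences was not tested.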

How the data were processed

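The authors deposited UMI counts per gene and barcode, not normalized, and tables of assembled contigs with UMI counts per contig, made with Cell Ranger 7.1.0 and the mm10 build, per the submitters' processing notes. Contigs were grouped into rearrangements by V gene, J gene and CDR3 nucleotides. V, D and J sequences and positions came from the GENCODE M21 annotation of GRCm38. Shares are per cell or per rearrangement, and other families mean every IGH contig outside V2 unless cells without a V2 chain are named. V genes with at least 10 rearrangements over both libraries were compared at 2-fold, and expression at 1.5-fold among genes with at least 100 UMIs, with receptor genes left out and a pseudocount of 1 CPM. The expression step was tested on simulated data. Named were V2 genes with at least 10 cells in a library, the 3 rearrangements with most cells, the 3 light-chain V genes used most, list genes with most UMIs or past 1.5-fold, and the 3 largest ratios each way among other genes. IGHV2-7, below that number of cells, was named in addition after its values were seen. Cell doublets were not removed. A marker of the B lineage is not reported here and was left out of the marker list. The members, lists and rules were chosen with earlier results of these data known. Python 3.11.15, pandas 2.3.3 and SciPy 1.17.1 were used.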

Additional observations from a re-analysis of the deposited data

How the results depend on the processing

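The V2 shares, the shares of IGHV2-2 and IGHV2-9 within V2, the CDR3 lengths and the clone sizes kept their values under each alternative run for them. Kept means within counting error, or for counts within 1.5-fold. For the shares of the other V2 genes within V2 no alternative was run. Of 138 alternative values, 13 moved. The share of V2 cells of the B220lo library with a light chain stood at 64.8% with contigs of at least 3 UMIs and at 72.3% in barcodes with exactly 1 heavy-chain contig. The alternatives on the D-J ends were chosen after the data were seen. Without the 4 shared ends, IGHJ2 in V2 of the deleted library stood at 42.4%. The share of V2 rearrangements whose D-J end occurred in more than 1 V2 rearrangement was 6.13% in the B220lo and 39.0% in the deleted library with 9 bases before J. It was 10.3% in the B220lo library with 7 bases and 26.2% in the deleted library with 12. For other families it was 31.9% and 40.7% with 9 bases, and this measure grows with the number of rearrangements. With a pseudocount of 10 CPM, 6 genes were higher and 9 lower in V2 cells of the deleted library, against 22 and 63. For the B220lo library the counts were 18 and 21, against 131 and 297. With a minimum of 30 UMIs the counts were 75 and 157 in the deleted and 324 and 572 in the B220lo library, with more genes of low counts compared. No paired analysis was possible because each group holds 1 library. Leaving out a replicate was not possible for the same reason. Rare V2 genes such as IGHV2-4 and IGHV2-7 are limited by their counts.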
